A study of Mus musculus with 15 samples.

Results

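The effect of an antibody to B7S1 on tumour T cells was read in 4 of the 15 RNA-seq libraries of the series, those titled Control, anti_B7S1, anti_PD1 and combo. All 4 came from T cells of E.G7 tumours, which grow from a mouse lymphoma line of T cell origin engineered to make the model antigen ovalbumin. Per the labels, the mice were wild-type C57BL/6 females that received tumour cells under the skin at 6-8 weeks of age, the cells were taken on day 21, and the age given is 9-11 weeks. Control names no treatment, anti_B7S1 and anti_PD1 name 1 antibody each, and combo was read as both antibodies together, although its label does not name its parts. The labels' treatment field reads none for all 4 libraries, and dose, schedule, sort gate and number of mice were not given for them. The antibody to B7S1 was therefore read in 2 pairs that share no library. The first pair was anti_B7S1 over Control, without the antibody to PD-1, and the second was combo over anti_PD1, with it. Each treatment had 1 library, so no difference below has a replicate check or a p-value.

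B7S1, encoded by Vtcn1, is a ligand of the B7 family that is displayed by antigen-presenting and tumour cells and restrains T cells through a receptor on their surface. PD-1, encoded by Pdcd1, is an inhibitory receptor that T cells display after repeated antigen contact, and antibodies that block it are used in cancer treatment. Il7r encodes the receptor chain for interleukin 7, a survival signal of naive and memory T cells. Vtcn1 was not among the 14710 gene symbols analysed here, so the target of the antibody gave no check of the labels.

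Values were FPKM, fragments per kilobase of transcript scaled to the library total, as the authors deposited them. The 4 libraries summed to 566338 to 608744 FPKM, and their read depth is unknown. Across genes, log2 values correlated at 0.67 between Control and anti_B7S1 and at 0.77 between anti_PD1 and combo, so the libraries of the first pair were less alike than anti_B7S1 and anti_PD1, at 0.74. Control was also low with the rest, at 0.69 with anti_PD1 and 0.66 with combo. Its values were below each value among the other libraries. The libraries also differed in how many genes were seen at all. At 1 FPKM or more, Control listed 5752 genes, anti_B7S1 6972, anti_PD1 8640 and combo 6913. Of 3578 genes that reached 5 FPKM in each of the 6 sorted wild-type libraries of the same series, Control had 717 under 1 FPKM, anti_B7S1 450 (12.6%), anti_PD1 97 (2.71%) and combo 398 (11.1%). A value near 0 in Control was therefore common even for genes measured in every sorted library. Of 18 T cell identity genes listed, 18 reached 5 FPKM in Control and anti_B7S1 and 17 in anti_PD1 and combo, where Bcl11b, a T lineage transcription factor, was at 0.14 and 0.38. Cd3e, a subunit of the T cell receptor complex, lay between 249.57 and 311.81 FPKM, and Cd8a, a chain of the CD8 co-receptor, between 284.63 and 407.21. Cd4 did not pass 0.27 FPKM in any of them. In bulk RNA, fewer cells of a type and less RNA per cell cannot be told apart.

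Ratios were taken as log2 of FPKM + 1, for genes at 5 or more FPKM in the higher library of each pair, and a gene is said to have risen or fallen where it passed 2-fold on that scale. Adding 1 understates the change of genes at low values. With the antibody to B7S1, the receptor genes Pdcd1, Il7r and Il4ra and the transcription factor genes Nfatc1 and Ikzf3 rose in both pairs, and the homing receptor Ccr7, the activation marker Cd69, the chemokine Xcl1 and the glycolytic genes Gapdh, Tpi1 and Eno1 fell in both. The cytotoxic genes Gzmb and Prf1 rose in the first pair and not in the second, where Gzmb fell. Of the 5963 genes kept, 496 (8.32%) rose in both pairs and 503 (8.44%) fell in both. Together the 999 genes that moved the same way were 16.8% of those kept. In the first pair alone 2142 genes (35.9%) had risen and 1600 (26.8%) had fallen, and in the second 1225 (20.5%) and 1704 (28.6%), which put 62.8% and 49.1% of genes past 2-fold either way. Opposite ways were taken by 1101 genes (18.5%), of which 707 (11.9%) rose in the first pair and fell in the second, and 394 (6.61%) did the reverse. Genes that moved oppositely thus outnumbered those that moved the same way, here and under each of the 12 alternative settings tried. The first pair leaned upward and the second downward, which by itself favours opposite moves. All settings reuse the same 4 libraries.

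A gene that rose in the second pair was little more likely than others to have risen in the first. Of the 1225 genes that rose with the antibody to B7S1 in the presence of the antibody to PD-1, 40.5% had risen in the first pair and 32.2% had fallen there, beside 35.9% and 26.8% of all genes kept. Of the 1704 that fell, 29.5% had fallen in the first pair and 41.5% had risen. Seen from the first pair, 23.2% of its 2142 risers and 31.4% of its 1600 fallers moved the same way in the second. The sign of the ratio was the same in both pairs for 2876 genes, 48.2% of those kept. Across genes, the ratios of the 2 pairs had a Pearson r of -0.01 and a Spearman rank correlation of -0.016, as a description over genes that share 4 libraries and are not independent.

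**Figure D1:**
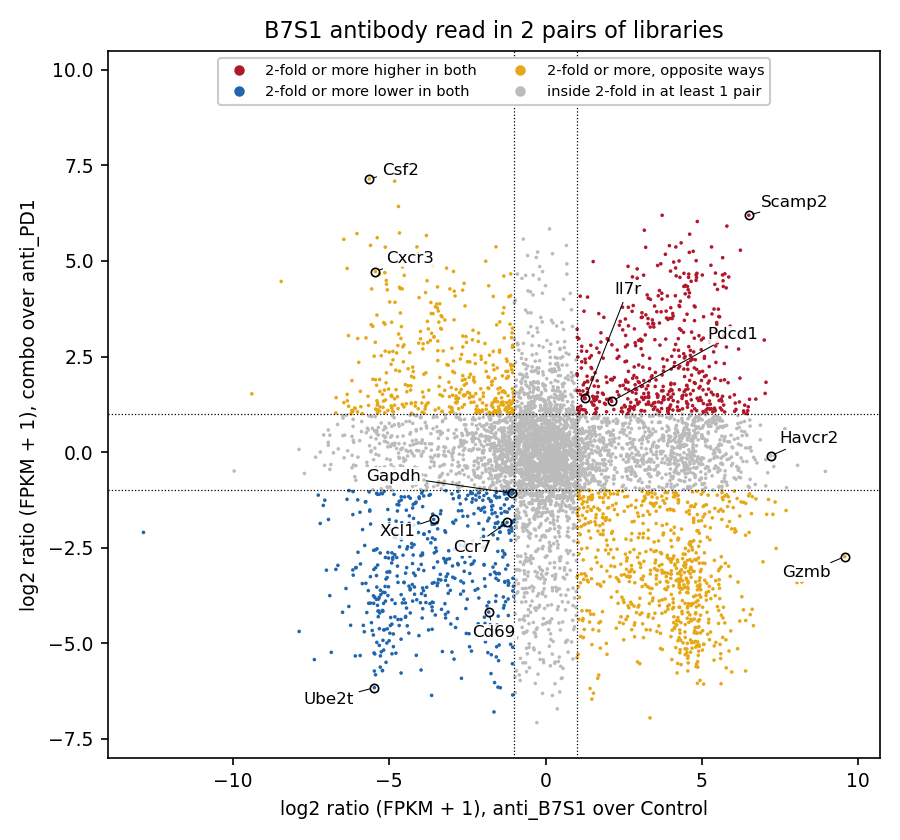
Log2 ratio of FPKM + 1 for the 5963 genes kept, anti_B7S1 over Control on the horizontal axis and combo over anti_PD1 on the vertical axis, 1 point per gene, with dotted lines at 2-fold. The 496 genes higher in both and the 503 lower in both occupy the upper right and lower left corners, and the other two corners hold the 1101 genes that moved oppositely.

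Many of these genes were near 0 in 1 of the libraries. Among the 496 genes that rose in both pairs, 370 (74.6%) were under 1 FPKM in the lower library of at least 1 pair, and so were 366 of the 503 (72.8%) that fell in both, beside 40.6% of all genes kept. That held in both pairs for 106 of the risers (21.4%) and 179 of the fallers (35.6%). A kept gene under 1 FPKM in a library is past 2-fold in that pair by construction. The filter alone therefore favours shares above that of all genes. Where a gene was at 5 FPKM or more in all 4 libraries, as 2927 were, 162 (5.53%) moved the same way and 194 (6.63%) oppositely. At 50 FPKM or more in all 4, 11 of 946 genes (1.16%) moved the same way, 3 up and 8 down, and 16 (1.69%) moved oppositely. Well-expressed genes were seldom past 2-fold in both pairs, and in each of these classes the same-way count was below the opposite count. Requiring 5 FPKM in all 4 libraries also turned the balance of directions within each pair, to 469 risers and 627 fallers in the first and 442 and 394 in the second.

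**Figure D2:**
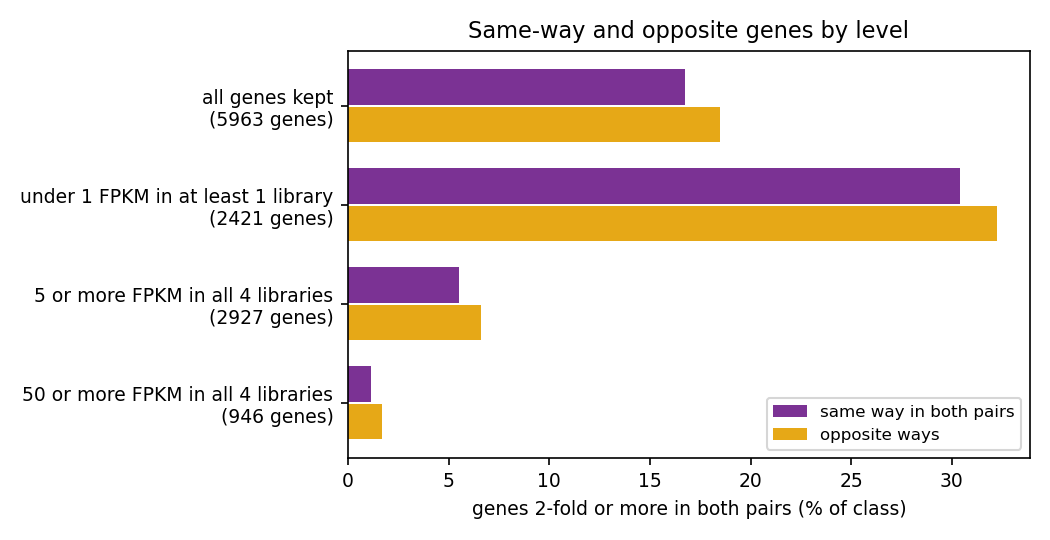
Percent of genes past 2-fold the same way in both pairs and past 2-fold in opposite ways, by how high a gene was in the 4 libraries. Both shares are highest, at 30.4% and 32.3%, among genes under 1 FPKM in at least 1 library. The filter puts every gene of that class past 2-fold in at least 1 pair. The shares fall from 16.8% and 18.5% of all genes kept to 1.16% and 1.69% of genes at 50 FPKM or more in every library. The opposite share is the larger one in each class.

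The sorted wild-type libraries gave a yardstick for how far libraries labelled as replicates differ in this series. Between the 2 libraries of the B7S1R_SP_WT population 5162 of 8109 genes (63.7%) were 2-fold or more apart, between those of TIM-3_SP_WT 4551 of 7560 (60.2%), and between those of DN_WT 1838 of 7174 (25.6%). With the same filter, 5 FPKM in the higher library of that pair alone, 4736 of 7083 genes (66.9%) were 2-fold or more apart in the first antibody pair, above all 3 replicate pairs, and 4501 of 8000 (56.3%) in the second, within their range. These sorted replicates come from 2 deposited tables with different gene lists, so they are a yardstick and no error for the antibody libraries.

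Pdcd1, the gene of PD-1, reached the highest level among the 3 genes that rose in both pairs at 50 FPKM or more throughout. It measured 117 FPKM in Control, 509.95 in anti_B7S1, 292 in anti_PD1 and 735 in combo. Both libraries with the antibody to B7S1 stood above both without it. Its log2 ratio was 2.11 in the first pair and 1.33 in the second. In the sorted populations Pdcd1 ranged from 28.5 to 489 FPKM, and the 2 replicates differed by -3.59 log2 in B7S1R_SP_WT, -2.53 in TIM-3_SP_WT and -0.05 in DN_WT, so the rise lay inside the widest replicate difference. The gene lies on the minus strand of chromosome 1 at 94038305 to 94052553 in mm10.

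Il7r rose by about as much in both pairs. It measured 46.7 FPKM in Control, 114 in anti_B7S1, 23.4 in anti_PD1 and 63.6 in combo, with log2 ratios of 1.27 and 1.40. The antibody to B7S1 went with the higher value in each pair, yet combo stayed below anti_B7S1 and not far above Control. Replicates of the sorted populations differed at Il7r by -3.18, -2.08 and -0.53 log2, again more than these ratios in B7S1R_SP_WT and TIM-3_SP_WT. The gene is on the minus strand of chromosome 15 at 9505788 to 9530176 in mm10.

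The promoters of Pdcd1 and Il7r, which rose, are shown with those of the glycolytic genes Gapdh and Eno1, which fell, as examples of the genes that were detected in every library and moved the same way in both pairs. They were picked with their values known. Ccr7 and Cd69 had no entry in the promoter table used. Each runs from 250 bases before to 50 bases after a RefSeq transcript start in GRCm38.p6, the assembly named mm10, 5′ to 3′ on the gene's strand. Capitals mark a match to 1 of 9 searched motifs on either strand, read as written or as the reverse complement. The match is the NF-Y box CCAAT in Pdcd1 and Eno1, and its reverse complement in Il7r. In Gapdh it is the reverse complement of TTTGAA, a part of the CHR element. For Eno1 the first of 3 listed starts is shown.
Pdcd1, chr1:94052504-94052803, minus strand: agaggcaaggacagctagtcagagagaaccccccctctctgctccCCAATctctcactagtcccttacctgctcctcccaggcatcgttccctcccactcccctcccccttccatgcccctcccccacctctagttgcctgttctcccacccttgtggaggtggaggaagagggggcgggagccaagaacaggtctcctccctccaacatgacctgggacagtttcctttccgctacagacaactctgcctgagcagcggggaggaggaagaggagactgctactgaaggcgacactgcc
Il7r, chr15:9529827-9530126, minus strand: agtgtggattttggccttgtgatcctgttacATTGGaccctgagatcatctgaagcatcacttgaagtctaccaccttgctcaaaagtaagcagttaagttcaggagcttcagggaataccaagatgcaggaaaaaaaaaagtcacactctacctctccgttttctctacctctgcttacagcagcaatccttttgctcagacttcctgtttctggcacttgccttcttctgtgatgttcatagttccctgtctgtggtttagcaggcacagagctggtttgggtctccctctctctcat
Gapdh, chr6:125165724-125166023, minus strand: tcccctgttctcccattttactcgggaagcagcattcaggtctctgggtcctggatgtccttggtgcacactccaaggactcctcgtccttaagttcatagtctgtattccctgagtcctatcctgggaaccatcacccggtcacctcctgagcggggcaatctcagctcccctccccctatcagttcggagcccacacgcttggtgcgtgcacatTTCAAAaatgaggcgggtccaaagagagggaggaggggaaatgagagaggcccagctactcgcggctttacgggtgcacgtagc
Eno1, chr4:150236458-150236757, plus strand: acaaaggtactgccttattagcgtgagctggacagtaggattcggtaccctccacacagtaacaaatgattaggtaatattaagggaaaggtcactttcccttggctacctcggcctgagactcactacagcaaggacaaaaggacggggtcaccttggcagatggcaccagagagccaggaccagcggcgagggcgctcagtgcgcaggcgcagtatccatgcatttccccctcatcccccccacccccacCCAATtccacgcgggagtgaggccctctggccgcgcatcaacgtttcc

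The searched motifs were counted in the promoters of the same-way genes and of all genes kept. A promoter was listed for 376 of the 496 risers, 387 of the 503 fallers and 4616 of the 5963 genes kept. CCAAT was held by 42.0% of the risers' promoters, 44.4% of the fallers' and 40.0% of all. For TTTGAA these shares were 10.4%, 10.6% and 12.0%, and for the E-box CACGTG 13.0%, 13.7% and 11.1%. The AP-1 motif TGANTCA was in 2.13% of the risers' promoters, 4.39% of the fallers' and 4.68% of all. The cyclic AMP element TGACGTCA was in 3.46%, 3.88% and 3.83%, and the interferon response element in 1.86%, 2.58% and 3.40%. The E2F motif TTTCCCGC was in 1.60%, 2.07% and 2.30%, the TCF/LEF motif CTTTGATC in 0.798%, 0.775% and 0.650%, and the NF-kB motif in 0%, 0.258% and 0.195%. A match is a description of the letters and does not show that a factor binds there.

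Inhibitory receptors as a list did not move together. Of 13 members kept, 6 rose (46.2%) and 2 fell (15.4%) in the first pair, and 2 rose (15.4%) and 4 fell (30.8%) in the second. All genes kept gave 35.9% and 26.8% in the first pair and 20.5% and 28.6% in the second, the shares against which each list's counts are to be read. The inhibitory receptors had median log2 ratios of 0.98 and -0.10 beside 0.18 and -0.12 over all genes. Havcr2, which encodes the exhaustion marker TIM-3, was 0.19 FPKM in Control, 174 in anti_B7S1, 213 in anti_PD1 and 198 in combo. Control alone was near 0, and the log2 ratio was 7.20 in the first pair and -0.10 in the second. Ctla4, another checkpoint receptor, was 83.6, 710.04, 487 and 185 FPKM in the same order. It therefore rose by 3.07 log2 in the first pair and fell by 1.39 in the second.

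Lag3, which binds MHC class II and inhibits T cells, was 334 FPKM in Control, 367 in anti_B7S1, 624 in anti_PD1 and 764 in combo, inside 2-fold in both pairs at 0.14 and 0.29 log2. Tigit, a checkpoint receptor of the nectin-binding family, was 852, 1677, 1129.66 and 1266 FPKM, with ratios of 0.98 and 0.16. Neither moved past the threshold. Besides Pdcd1, Entpd1, the ectonucleotidase CD39, rose in both pairs. It was listed at 0 in Control and measured 22.9 FPKM in anti_B7S1, 5.69 in anti_PD1 and 44.3 in combo, a log2 ratio of 2.76 in the second pair.

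Of 16 effector molecules kept, 9 rose (56.3%) and 5 fell (31.3%) in the first pair, beside 35.9% and 26.8% of all genes kept. In the second pair 3 rose (18.8%) and 2 fell (12.5%), beside 20.5% and 28.6%, so the share of risers there was about that of all genes. The medians were 2.01 and -0.37. Gzmb, the cytotoxic protease granzyme B, was 0.04 FPKM in Control, 788 in anti_B7S1, 1716 in anti_PD1 and 257 in combo. Prf1, the pore-forming perforin, was 0.11, 295, 793 and 625 FPKM. In both genes Control was near 0 and the other 3 libraries were high, and in both combo was below anti_PD1. Gzmb changed by 9.57 and -2.74 log2 and Prf1 by 8.06 and -0.34.

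Some other members of the list had the same shape. Fasl, the ligand that triggers death through Fas, was 0.03 FPKM in Control and 106, 132 and 115 in anti_B7S1, anti_PD1 and combo, with ratios of 6.70 and -0.20. Ccl4, a chemokine of activated T cells, was 0.09, 537, 361 and 254 FPKM, with ratios of 8.95 and -0.51. Control was the single low library for both. Ifng, the cytokine interferon gamma, was detected in Control at 37.8 FPKM, and reached 216 in anti_B7S1, 259 in anti_PD1 and 142 in combo, a rise of 2.49 log2 followed by a value of -0.87 inside 2-fold. Ccl5 was 625, 3054, 1775 and 1229 FPKM, with ratios of 2.29 and -0.53. Of other granzymes, Gzmf shared this shape, at 0, 20.4, 81.7 and 41.0 FPKM, whereas Gzma, Gzmk and Gzmm did not. Gzma was 0, 35.0, 0.13 and 0 FPKM, Gzmk was listed at 0 in Control and anti_B7S1 and measured 137 and 134 in anti_PD1 and combo, and Gzmm was 34.4 FPKM in Control and 0.32, 0 and 0 in the others. Where genes at 5 FPKM or more in all 4 libraries were kept, the list's median in the first pair was -0.24.

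Ccl3 and Xcl1 were the effector genes that moved the same way, in opposite directions from each other. Ccl3, a chemokine of activated T cells, was 2.41 FPKM in Control, 43.6 in anti_B7S1, 176 in anti_PD1 and 389 in combo, rising by 3.71 and 1.14 log2. Xcl1, a chemokine that attracts cross-presenting dendritic cells, was 691 FPKM in Control, 56.9 in anti_B7S1, 129.8 in anti_PD1 and 37.6 in combo. It was lowest in the 2 libraries with the antibody to B7S1, at -3.58 and -1.76 log2. Among sorted replicates, Xcl1 differed by at most 1.74 log2 and Ccl3 by up to 2.68. Tnf was 64.9, 12.3, 92.2 and 125 FPKM, falling by 2.31 in the first pair, with 0.43 in the second.

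**Figure D3:**
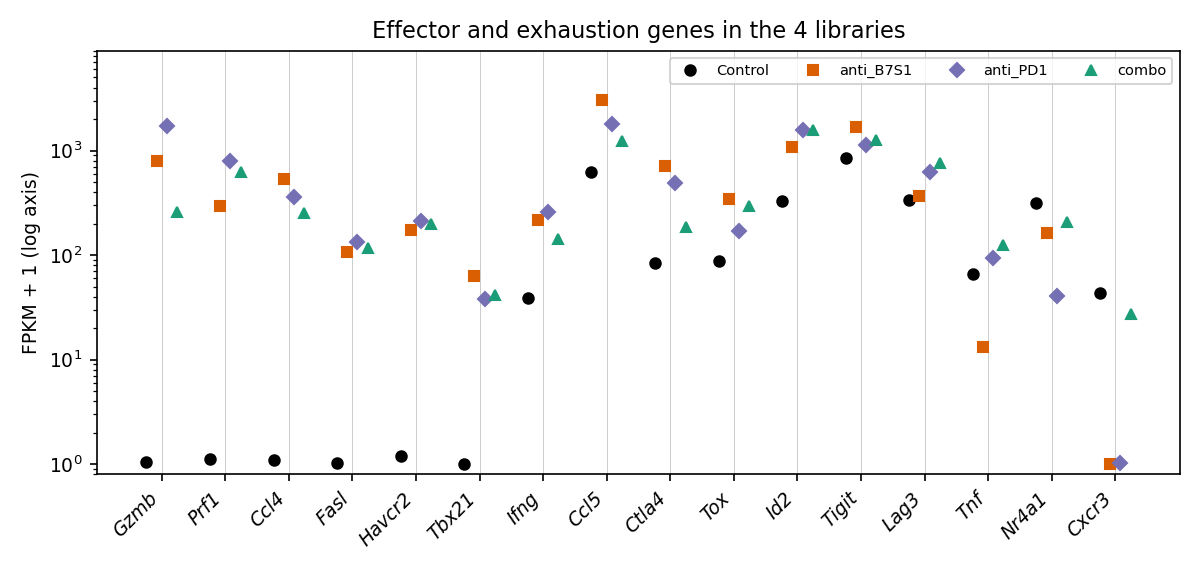
FPKM + 1 on a log axis for effector and exhaustion genes of the panel, 1 point for each of the 4 libraries. Gzmb, Prf1, Ccl4, Fasl, Havcr2 and Tbx21 are at or near 0 FPKM in Control and high in the other 3 libraries, whereas Lag3 and Tigit are detected at similar levels throughout.

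The panel of 30 genes holds many of the genes above. Of its members 29 were listed and 22 kept. In the first pair 15 rose (68.2%) and 3 fell (13.6%), beside 35.9% and 26.8% of all genes. In the second 5 rose (22.7%) and 4 fell (18.2%), beside 20.5% and 28.6%. Ccl3, Il7r and Pdcd1 rose in both pairs and Ccr7 fell in both.

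Genes of naive and memory T cells followed no single direction. Of 11 kept, 2 rose (18.2%) and 5 fell (45.5%) in the first pair and 4 rose (36.4%) and 5 fell (45.5%) in the second, beside 35.9%, 26.8%, 20.5% and 28.6% of all genes kept. The medians were -0.57 and -0.54. Ccr7, the receptor that guides T cells to lymph nodes, was 5452 FPKM in Control, 2318 in anti_B7S1, 896 in anti_PD1 and 249 in combo. Each antibody went with a lower value and combo was lowest, at -1.23 and -1.84 log2 for the antibody to B7S1. Bach2, a repressor of effector differentiation, fell in both pairs, from 44.7 to 10.7 FPKM and from 7.53 to 0.11. Tcf7, the transcription factor TCF-1 of stem-like T cells, was 73.8 FPKM in Control, 85.2 in anti_B7S1, 9.96 in anti_PD1 and 2.50 in combo. It was low in both libraries with the antibody to PD-1, and for the antibody to B7S1 gave 0.20 in the first pair and -1.65 in the second.

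Slamf6, a surface marker of stem-like T cells, was also low where Tcf7 was low, at 43.4 FPKM in Control, 303 in anti_B7S1, 1.57 in anti_PD1 and 0.09 in combo. Because it did not reach 5 FPKM in the second pair, it entered no count. At Ccr7 the replicates of the sorted populations differed by up to -3.35 log2, more than either ratio of the antibody pairs. For the naive and memory list, the median in the second pair turned to 0.59 with a minimum of 10 FPKM, to 0.07 after quantile scaling and to 1.00 among genes at 5 FPKM or more in all 4 libraries.

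Of 14 transcription factors of exhaustion and effector fate kept, 8 rose (57.1%) and 2 fell (14.3%) in the first pair, where all genes also leaned upward with 35.9% and 26.8%. In the second 4 rose (28.6%) and 2 fell (14.3%), beside 20.5% and 28.6%. The medians were 1.46 and 0.43. Nfatc1, which carries calcium signals from the T cell receptor, rose in both pairs, at 31.1 FPKM in Control, 157 in anti_B7S1, 85.7 in anti_PD1 and 258 in combo, or 2.29 and 1.58 log2. Ikzf3, the lymphocyte factor Aiolos, was 14.9, 35.6, 28.3 and 98.3 FPKM, or 1.21 and 1.76. Like Pdcd1, both were higher in anti_B7S1 than Control and highest in combo. Sorted replicates differed by up to -4.12 log2 at Nfatc1 and -1.79 at Ikzf3, more than the smaller ratio of each. Tox, a driver of the exhausted state, was 86.7, 345, 169 and 292 FPKM, which passed 2-fold in the first pair at 1.98 and not in the second at 0.79. Tbx21, which encodes T-bet, was listed at 0 in Control and was 61.5, 36.6 and 40.3 FPKM in the other 3 libraries, with 0.13 in the second pair.

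Nr4a1, an early gene of T cell receptor signalling, was 315 FPKM in Control, 162 in anti_B7S1, 39.6 in anti_PD1 and 206 in combo. It stayed inside 2-fold in the first pair at -0.96 log2 and rose by 2.35 in the second. Id2, a regulator of effector T cells, was 328, 1082, 1586 and 1587 FPKM, rising by 1.72 in the first pair and standing at 0.00 in the second. Control was its lowest library, and the other 3 were within 2-fold of each other.

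Among cytokine receptors, 8 of 15 rose (53.3%) and 2 fell (13.3%) in the first pair, and 2 rose (13.3%) and 6 fell (40.0%) in the second, with medians of 1.02 and -0.16. All genes leaned the same ways, with 35.9% and 26.8%, then 20.5% and 28.6%. The 2 risers of the second pair, Il7r and Il4ra, had also risen in the first. Il4ra, a receptor chain for interleukin 4, was 22.4 FPKM in Control, 69.0 in anti_B7S1, 13.95 in anti_PD1 and 62.0 in combo, at 1.58 and 2.08 log2. Both libraries with the antibody to B7S1 were above both without. Sorted replicates differed by up to -2.83 log2 at Il4ra, more than either of its ratios. Il2ra, the high-affinity chain of the interleukin 2 receptor, fell in both, from 7.60 to 1.19 FPKM and from 15.4 to 6.43, and no longer passed in the second pair with 5 FPKM added in place of 1. Il2rb, a chain of the interleukin 2 receptor, was 275, 1024, 1305 and 1343 FPKM, or 1.90 and 0.04.

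Glycolytic genes had negative medians in both pairs, -0.77 and -0.95 log2 beside 0.18 and -0.12 over all genes. Of 16 kept, 2 rose (12.5%) and 6 fell (37.5%) in the first pair and 0 rose and 7 fell (43.8%) in the second, beside 35.9%, 26.8%, 20.5% and 28.6% of all genes kept. Both ratios were below 0 for 8 of them. Tpi1, Gapdh and Eno1 fell past 2-fold in both pairs. Gapdh, the dehydrogenase in the middle of the pathway, was 3488 FPKM in Control, 1656 in anti_B7S1, 3242 in anti_PD1 and 1539 in combo, at -1.07 and -1.07 log2. Eno1, the enolase, was 1232, 563, 1415 and 685 FPKM, at -1.13 and -1.05. Tpi1, triosephosphate isomerase, was 804, 207, 411 and 138 FPKM, at -1.95 and -1.57. All 3 were lower in both libraries with the antibody to B7S1 than in both without.

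Other enzymes of the pathway passed 2-fold in 1 pair or in neither. Pkm, pyruvate kinase, was 838, 458, 853 and 461 FPKM in Control, anti_B7S1, anti_PD1 and combo, at -0.87 and -0.89. Pgk1, phosphoglycerate kinase, was 573, 297, 356 and 92.3 FPKM, at -0.94 and -1.93, and Aldoa, aldolase A, was 663, 417, 846 and 386, at -0.67 and -1.13. Each was lower with the antibody to B7S1 in its pair. Ldha, lactate dehydrogenase A, was 744, 789, 944 and 943 FPKM and did not follow them, at 0.09 in the first pair and 0.00 in the second. It was not the only exception. Of the 16 glycolytic genes kept, 6 had a ratio above 0 in the first pair and 2 in the second. Gapdh and Eno1, like ribosomal protein genes, have near-identical copies in the mouse genome, and how reads shared with them were counted is not given in the sources used here, so their levels are uncertain. The ratios of Gapdh and Eno1 lay close to 2-fold. Gapdh no longer passed in both pairs when the all-gene median was set to 0 or the libraries were scaled to the same total FPKM. Eno1 no longer passed under these, nor under a trimmed total or quantile scaling, while Tpi1 passed in all 11 settings that gave it a value. The 3-fold setting was not applied to single genes. Replicates of the sorted populations differed by up to -1.06 log2 at Gapdh, -1.87 at Eno1 and -0.90 at Tpi1.

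**Figure D4:**
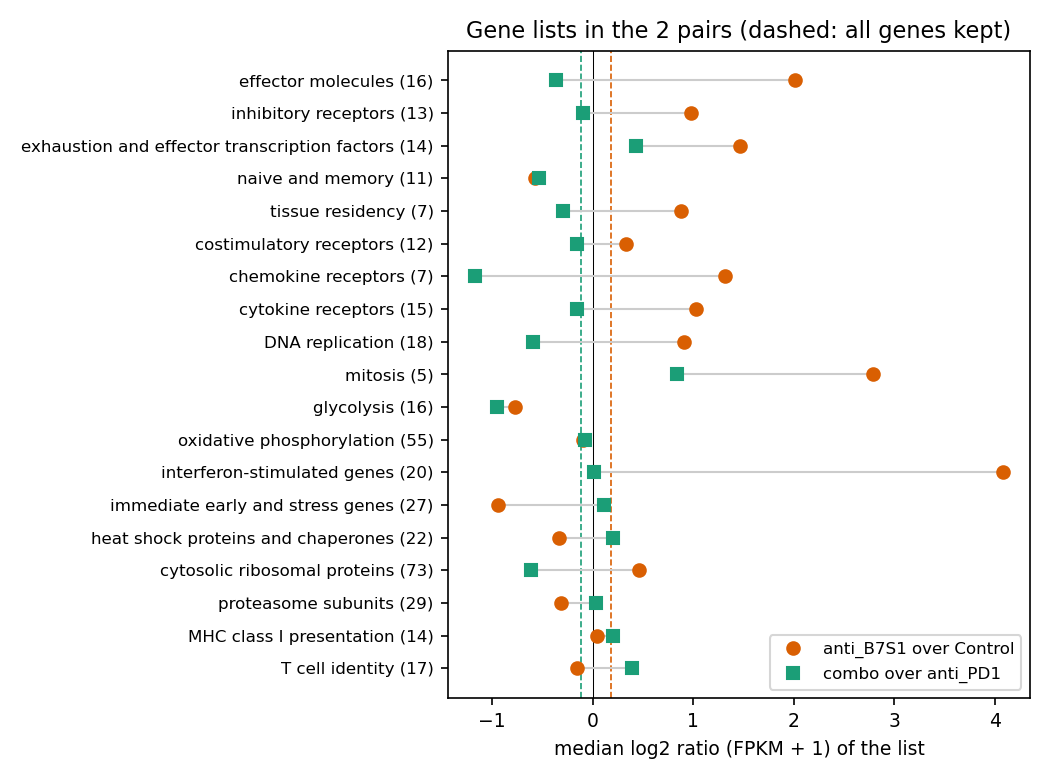
Median log2 ratio of FPKM + 1 of the genes kept in each list, in the first pair (anti_B7S1 over Control) and the second (combo over anti_PD1). Glycolysis is below 0 in both pairs, at -0.77 and -0.95, whereas effector molecules, at 2.01 and -0.37, and interferon-stimulated genes, at 4.08 and 0.01, stand high in the first pair and near or below 0 in the second.

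Oxidative phosphorylation genes had medians of -0.10 and -0.07 over 55 genes, with 9 risers (16.4%) and 10 fallers (18.2%) in the first pair and 3 (5.45%) and 7 (12.7%) in the second, each below the share of all genes. Ndufb2, a complex I subunit, fell in both, from 179 to 17.8 FPKM and from 117 to 16.1, at -3.26 and -2.78 log2. Sdhd, a complex II subunit, fell from 153 to 48.1 FPKM and from 115 to 0.04. Ribosomal protein genes took opposite sides of 0. Of 73 kept, 62 were positive in the first pair and 70 negative in the second, with medians of 0.46 and -0.61. Few passed 2-fold, 6 rising in the first pair (8.22%) and 11 falling in the second (15.1%), beside 35.9% and 28.6% of all genes. Their summed FPKM was 86916 in Control, 122455 in anti_B7S1, 96443 in anti_PD1 and 63432 in combo.

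Interferon-stimulated genes had a first-pair median of 4.08 over 20 genes with 12 risers and 3 fallers (15.0%), beside 35.9% and 26.8% of all genes. In the second pair the median was 0.01, with 5 risers (25.0%) and 7 fallers (35.0%), near the 20.5% and 28.6% of all genes. Isg15, a ubiquitin-like antiviral protein, was listed at 0 in Control and measured 26.0 FPKM in anti_B7S1, 4.84 in anti_PD1 and 45.1 in combo. Rtp4 was listed at 0 in Control, and was 53.9, 0.11 and 20.8 FPKM in the others. Both were highest in the libraries with the antibody to B7S1, with second-pair ratios of 2.98 and 4.30. Zbp1, a sensor of nucleic acids, was 0.93, 29.0, 28.3 and 63.2 FPKM, at 3.96 and 1.13, and Xaf1 0.30, 26.8, 1.45 and 13.6, at 4.42 and 2.57. Other members went the other way. Dhx58, a cytoplasmic RNA sensor, was 20.5 and 22.4 FPKM in Control and anti_PD1 and listed at 0 with the antibody to B7S1, and Trim30a fell from 35.05 to 11.6 and from 18.8 to 0.01.

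The rise of this list in the first pair came with values near 0 in Control. Among genes at 5 FPKM or more in all 4 libraries, the list's first-pair median was 0.21.

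Of 27 immediate early and stress genes kept, 5 rose (18.5%) and 13 fell (48.1%) in the first pair, beside 35.9% and 26.8% of all genes. In the second 4 rose (14.8%) and 5 fell (18.5%), beside 20.5% and 28.6%, with medians of -0.94 and 0.11. Fos, a subunit of the AP-1 factor, was 199.8 FPKM in Control, 20.8 in anti_B7S1, 10.6 in anti_PD1 and 0.13 in combo. Control was far above the rest, and the ratios were -3.20 and -3.36 log2. Jun, its partner, was 424, 26.4, 61.8 and 75.4 FPKM, and fell by 3.95 in the first pair with 0.28 in the second. Cd69, an activation and retention marker, was 84.6, 23.25, 203 and 10.2 FPKM, at -1.82 and -4.19. Both libraries with the antibody to B7S1 were below both without it. Egr2, a zinc-finger factor induced by T cell receptor signals, rose, listed at 0 in Control and at 11.9, 0.17 and 34.6 FPKM in the others.

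Of 18 DNA replication genes kept, 9 rose and 4 fell (22.2%) in the first pair and 1 rose (5.56%) and 6 fell (33.3%) in the second, beside 35.9%, 26.8%, 20.5% and 28.6% of all genes kept. The medians were 0.91 and -0.60. Mitosis genes summed to 26.8 FPKM in Control, 100.5 in anti_B7S1, 2228 in anti_PD1 and 2284 in combo. Only 5 of 29 were kept, because most were under 5 FPKM in both libraries of the first pair. Cdk1, the mitotic kinase, was 11.9, 0, 83.5 and 38.1 FPKM and fell in both, whereas Dlgap5, a spindle protein, was 0.42, 8.79, 29.3 and 115 and rose in both.

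Of 7 chemokine receptors kept, 4 rose (57.1%) and 2 fell (28.6%) in the first pair and 1 rose (14.3%) and 4 fell (57.1%) in the second, beside 35.9%, 26.8%, 20.5% and 28.6% of all genes kept. The medians were 1.31 and -1.17. Medians stood at 0.88 and -0.29 for tissue residency genes and at 0.33 and -0.16 for costimulatory receptors. Heat shock proteins and chaperones were at -0.34 and 0.20, proteasome subunits at -0.32 and 0.03, MHC class I presentation at 0.05 and 0.20, and T cell identity genes at -0.16 and 0.39. Tnfrsf4, the costimulatory receptor OX40, was 331, 393, 131 and 407 FPKM, inside 2-fold in the first pair at 0.25 and risen in the second at 1.63.

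In all, 31 of the 392 list members kept (7.91%) moved the same way, 13 up (3.32%) and 18 down (4.59%), below the 16.8%, 8.32% and 8.44% of all genes. Of the 31, 12 were at 5 FPKM or more in all 4 libraries. For 14 of the 31, and 7 of the 12, the smaller of the ratios was within the largest difference between sorted replicates of the same gene.

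**Figure D5:**
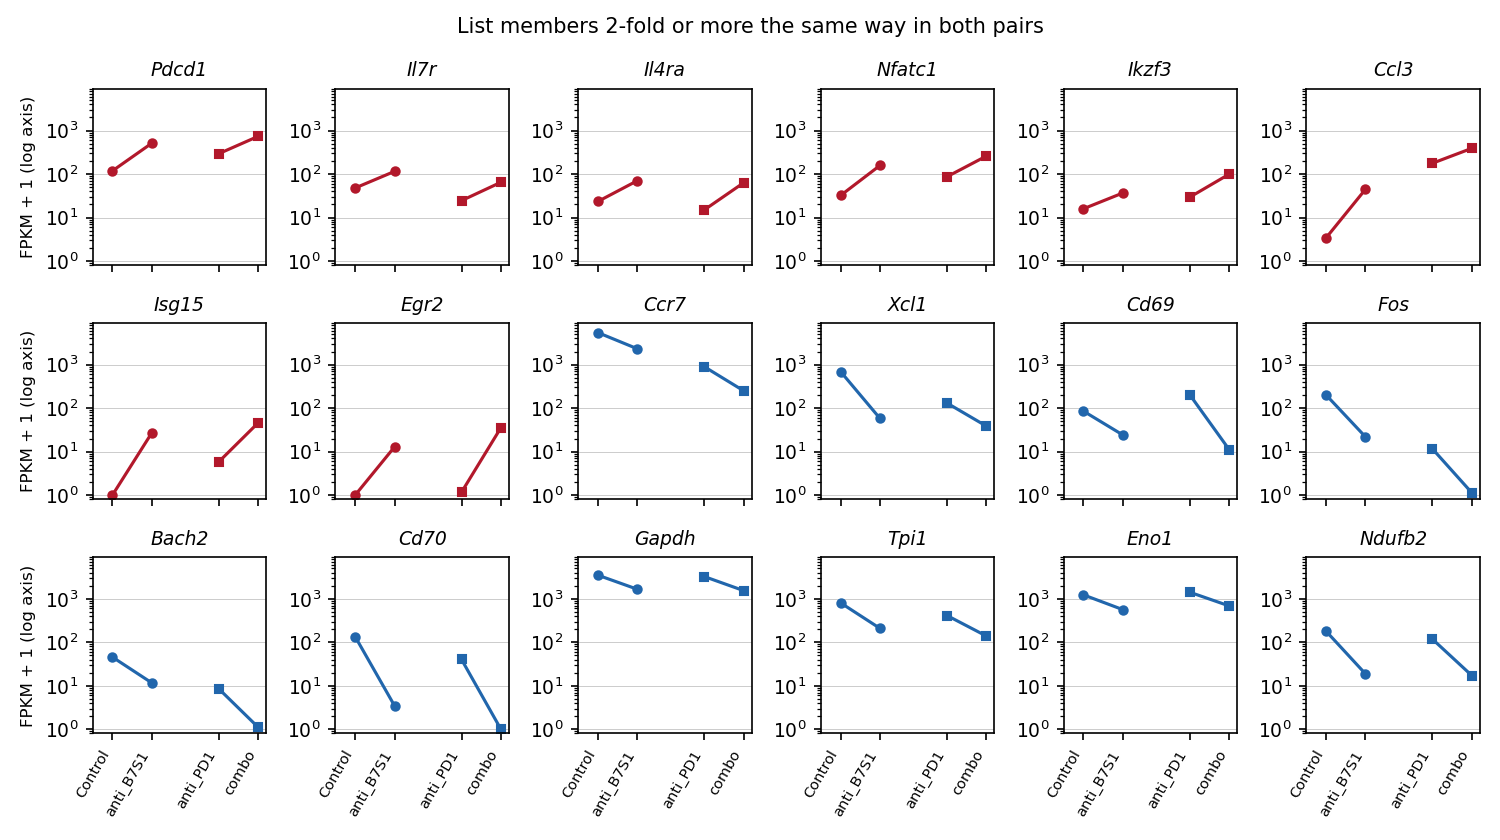
FPKM + 1 on a log axis in the 4 libraries for genes that moved the same way in both pairs, 1 point per library. Pdcd1 stands at 117, 509.95, 292 and 735 FPKM in Control, anti_B7S1, anti_PD1 and combo, and Gapdh at 3488, 1656, 3242 and 1539.

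At 50 FPKM or more in every library, the genes that rose in both pairs were Pdcd1, Arhgdia and Sema4d. Arhgdia was 136 FPKM in Control, 342 in anti_B7S1, 162 in anti_PD1 and 512 in combo, at 1.33 and 1.66 log2. Sema4d, a semaphorin of lymphocytes, was 50.2, 107, 54.5 and 116 FPKM, at 1.07 and 1.07. The genes that fell were Ccr7, Ddt, Eno1, Fam162a, Gapdh, Serpine2, Tmed9 and Tpi1. Fam162a was 601, 128, 142 and 58.8 FPKM, at -2.22 and -1.26, and Serpine2, a secreted protease inhibitor, was 325, 144, 1141 and 262, at -1.16 and -2.12. Serpine2 thus fell in both pairs although anti_PD1 was well above Control. Sorted replicates differed by more than the smaller ratio at Arhgdia, Sema4d and Serpine2, by up to -3.26, -3.53 and -1.78 log2.

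Further same-way genes detected in all 4 libraries were chosen after their values were seen. Ubash3a, a phosphatase that dampens T cell receptor signals, was 22.9, 91.8, 43.8 and 116 FPKM in Control, anti_B7S1, anti_PD1 and combo, at 1.95 and 1.38, and Inpp5d, the lipid phosphatase SHIP1, was 16.3, 56.2, 32.6 and 83.0, at 1.73 and 1.32. Malt1, which links antigen receptors to NF-kB, was 7.12, 45.6, 31.5 and 74.7 FPKM, at 2.52 and 1.22. These 3 shared the order of Pdcd1, with Control lowest and combo highest. Ikzf1, the lymphocyte factor Ikaros, also had this order, at 9.28, 51.2, 21.6 and 62.6 FPKM, with ratios of 2.34 and 1.49. Sorted replicates differed by up to 0.89 log2 at Ikzf1, less than its smaller ratio, but by up to -2.82 at Ubash3a, -2.95 at Inpp5d and -1.63 at Malt1, more than theirs.

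Among fallers chosen in the same way, Il1r2, the decoy receptor for interleukin 1, was 4729 FPKM in Control, 384 in anti_B7S1, 113 in anti_PD1 and 22.9 in combo, at -3.62 and -2.25. Tnfsf4, the ligand OX40L, was 1043, 263, 141 and 29.7 FPKM, at -1.98 and -2.21. Nfkbid, an atypical inhibitor of NF-kB, was 209.7, 19.5, 61.8 and 19.5, at -3.36 and -1.62. For Il1r2 and Tnfsf4 the Control value was several times the highest of the 6 sorted libraries, 468 and 87.9 FPKM. Even so, sorted replicates differed by up to -2.54 log2 at Il1r2, -3.32 at Tnfsf4 and 1.79 at Nfkbid, more than the smaller of their ratios. Penk, the enkephalin precursor, also fell in both but was near 0 in anti_B7S1, at 8704 FPKM in Control, 0.17 in anti_B7S1, 147 in anti_PD1 and 33.6 in combo. The sorted libraries held Penk at 467 to 4395 FPKM.

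The strongest same-way genes by the smaller of both ratios were largely present or absent. Scamp2, a protein of secretory vesicles, led the risers at 0.02 FPKM in Control, 91.3 in anti_B7S1, 0.28 in anti_PD1 and 92.9 in combo, or 6.50 and 6.20 log2. After it came Galm, Ccdc137, Ptpn5, Dolk, Gmppb, Umad1, Stk11ip, Zfp51 and Ltv1. Ube2t, a ubiquitin-conjugating enzyme of DNA repair, led the fallers at 46.2, 0.06, 70.7 and 0 FPKM. It was followed by Chaf1b, a histone chaperone, and by Pih1d1, H2-Oa, Commd10, Tm4sf19, Bmyc, Cd70, St3gal4 and Pepd. Cd70, the ligand of the costimulatory receptor CD27, was 134, 2.47, 39.3 and 0 FPKM, and H2-Oa, a chaperone subunit of MHC class II loading, was 167, 0, 42.1 and 0. In each of these fallers that has values here, the libraries with the antibody to B7S1 were near or at 0.

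The 2-fold threshold is a setting, and genes lay on both sides of it. By the smaller ratio, just inside it among the risers were Pabpn1, Exosc10 and Pdcl, at 1.00 to 1.01 log2, and just outside were Cyth1, Mapre2 and Pogz, each at 0.99. Among the fallers Gps1, Drg1 and Mthfd1l were just inside, the furthest at -1.02, and Ist1, Cdkn2aipnl and Prelid2 just outside, each at -0.998.

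Past 2-fold in the first pair only were 1642 genes, 939 up (15.7%) and 703 down (11.8%). Those with the largest ratios and flat in the second pair, within 0.25 log2, were Cript, Havcr2, Aup1, Fasl and Mterf3 among risers and Ifi30, Mlf2, Dguok, Chmp5 and Utp3 among fallers. Ifi30, a lysosomal thiol reductase of antigen processing, was 236 FPKM in Control, listed at 0 in anti_B7S1, and 65.05 and 68.3 in anti_PD1 and combo. In the second pair only, 829 genes were past 2-fold, 335 up (5.62%) and 494 down (8.28%). Among those within 0.25 log2 in the first pair, the risers were led by Cab39, Capn7, D10Jhu81e, Alkbh4 and Pcid2, and the fallers by Sgk1, Tmem219, Ifi47, Snx12 and Hmgn1. Sgk1, a kinase of salt and cytokine signalling, was 39.6, 46.2, 269 and 2.27 FPKM, at 0.22 and -6.37. Ifi47, an interferon-induced GTPase, was 127, 107, 60.8 and 0.10, at -0.24 and -5.81. Sgk1 was highest and Ifi47 detected in anti_PD1, and both were nearly absent in combo.

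Within 2-fold in both pairs were 1392 genes (23.3%). By the smaller ratio, the genes that moved furthest in opposite ways were Tmem120a, Triap1, Tspan14 and Rnf113a2, up and then down, and Cd7, Csf2, Aamdc and Ms4a6d, down and then up. Csf2, the growth factor GM-CSF, was 48.8 FPKM in Control, 0 in anti_B7S1, 0.05 in anti_PD1 and 148 in combo. Cd7, a T cell surface molecule, was 64.55, 0, 0 and 51.6, and Cxcr3, a chemokine receptor of effector T cells, was 42.5, 0, 0.03 and 26.2. All 3 were present in Control and combo and at or near 0 in the libraries with a single antibody. At 50 FPKM or more throughout, Akr1a1, Calu, Cst3, Ctla4, Gimap4, Gimap6, Magoh and Rab7 rose in the first pair and fell in the second, and Ccnd3, Ccnl1, Cdk2ap2, H2-Q5, Itgal, Sae1, Sla and Uqcrc2 did the reverse.

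Markers of other cells were measured beside these results, and their part in them was not tested. Of 28 myeloid markers 16 were listed, and their sum was 459 FPKM in Control, 116 in anti_B7S1, 1145 in anti_PD1 and 3299 in combo. Spp1, the secreted protein osteopontin, held most of it in anti_PD1 and combo, at 972 and 2971 FPKM. These values lay within the range of Spp1 in the 6 sorted wild-type libraries, 52.95 to 3185 FPKM. Control and anti_B7S1, at 0.13 and 0.04, lay below that range. Lyz2, a lysozyme of myeloid cells, was 0, 0, 0.20 and 66.7 FPKM, and Csf1r, a defining macrophage receptor, was listed at 0 in Control and combo. Cd68, a lysosomal protein of macrophages, was 247, 0.05, 24.9 and 0 FPKM and is among the genes that fell in both pairs. In Control, anti_B7S1, anti_PD1 and combo, 3, 1, 5 and 5 of the 16 were at 5 FPKM or more and 8, 10, 4 and 8 were at 0. The 9 B cell markers listed summed to 0.32 to 14.4 FPKM, and the 7 stromal and endothelial markers to 1.12 to 25.9. Erythroid markers summed to 38.5 and 40.2 FPKM in Control and anti_B7S1 and to 0.09 and 3.46 in anti_PD1 and combo. NK cell markers, several of which T cells also express, summed to 199.5, 242, 495 and 660.0 FPKM, mostly through Klrk1 and Klre1. Foxp3, which defines regulatory T cells, was listed at 0 in Control, anti_B7S1 and anti_PD1. Candidate markers of the tumour line summed to 14.03 to 42.3 FPKM, of which Myc, also made by activated T cells, was at 5 FPKM or more in all 4. MHC class II genes summed to 667, 381, 239.9 and 102 FPKM, with H2-Aa and H2-Ab1 listed at 0 in Control and anti_B7S1.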

How the data were processed

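RNA was made into libraries with the SMARTer ultra low input kit and sequenced on Illumina HiSeq machines, per the labels' protocols. The authors deposited FPKM, per the file headers, given to 2 decimals with a minimum of 0. HISAT2, Bowtie2, RSEM and the build mm10 are named, without versions, in the submitters' processing notes. The annotation and the filters are not given in the sources used here. No count or depth was used, and p-values were not computed. A repeated symbol (1 case) was dropped, and some symbols are spreadsheet dates.

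From these values log2 ratios of FPKM + 1 were computed with Python 3.11.15, pandas 2.3.3 and numpy 2.4.6. Correlations were computed through pandas, with scipy 1.17.1 installed, and plots were made with matplotlib 3.10.9. Genes needed 5 FPKM in the higher library of each pair, and 2-fold to be counted. The counting step was tested on simulated data with well-expressed genes, large planted changes and little noise. It does not show how the counts behave on libraries as variable as these. The members, the 28 gene lists and the panel of 30 genes were chosen with earlier results of these data known.

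Named genes are the panel, the 10 largest same-way genes each way by the smaller ratio, the 4 largest opposite genes each way, the 5 largest each way past 2-fold in 1 pair and within 0.25 log2 of 0 in the other, same-way members of the described lists, and 3 genes on each side of the threshold. Ranked genes needed 10 FPKM in the highest library, and excluded predicted genes and pseudogenes, small and histone RNAs, and antigen receptor V segments. Other list members named with values, genes at 50 FPKM or more and genes said to be so were chosen after their values were seen. Promoters came from RefSeq (GRCm38.p6), and gene positions from GENCODE vM21.

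Alternatives changed the pseudocount, the minimum FPKM, the fold, the treatment of zeros and the scaling. Gene lists are described by counts and medians, and no set test was run.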

Additional observations from a re-analysis of the deposited data

Results flagged for a closer look

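Of the genes kept, 1101 moved past 2-fold in opposite ways in the pairs without and with the antibody to PD-1. With 1 library per treatment, the difference between the pairs was not tested for any of them. The values below are the second-pair log2 ratio minus the first, and where a library is listed at or near 0 they depend on the 1 FPKM added.

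Among the panel and list genes, the difference was -12.30 for Gzmb, -4.47 for Ctla4 and 10.17 for Cxcr3. Ctla4 was the one of these detected in all 4 libraries. For the genes that moved furthest up and then down it was -11.71 for Tmem120a, -12.12 for Triap1, -11.42 for Tspan14 and -11.67 for Rnf113a2. For those that moved furthest down and then up it was 11.75 for Cd7, 12.79 for Csf2, 12.02 for Aamdc and 11.01 for Ms4a6d.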

How the results depend on the processing

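No paired analysis was possible because the titles of the antibody libraries carry no replicate number and each treatment has 1 library. For the same reason no library could be left out of a pair, and without Control the same-way counts cannot be formed, which leaves the second pair's 1225 risers and 1704 fallers. The counts past 2-fold in 1 pair only came to 2827 and 2882 with no minimum FPKM. With zeros left out, 287 genes rose and 262 fell in both pairs and 579 moved oppositely. At 3-fold these were 283, 333 and 697. Among genes at 5 FPKM or more in all 4 libraries, an alternative chosen after seeing the data, they were 75, 87 and 194, with 740 and 480 past 2-fold in 1 pair only. Opposite genes outnumbered same-way genes under all 12 alternatives, which reuse the same 4 libraries. The mitosis median of the first pair reversed to -0.85 under quantile scaling from 2.79, and the effector median to -0.24 among genes at 5 FPKM or more in all 4 libraries from 2.01. The Pearson correlation across genes stayed between -0.03 and 0.01. Centring moved the all-gene medians of 0.18 and -0.12 to 0. Under scaling or centring, Eno1, Gapdh, Cdk1 and Dlgap5 were no longer past 2-fold in both pairs, whereas Pdcd1, Il7r, Ccr7, Cd69, Il4ra, Nfatc1, Ikzf3, Xcl1 and Tpi1 stayed so in the 11 settings that gave them a value. Those settings leave out the 3-fold threshold, which was not applied to single genes. Of the genes just named as staying, only Cd69 and Xcl1 were past 3-fold in both pairs. Ndufb2 also stayed past 2-fold in all 11 settings and was past 3-fold, at -3.26 and -2.78. Same-way genes that had a value in fewer settings are not listed here. Il2ra was no longer past 2-fold in both with 5 FPKM added. The cause of these moves was not tested. Unknown depth and values near 0 limit most of the genes counted.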
